A study of Mus musculus with 16 samples.

Results

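Inguinal white adipose tissue, which lies under the skin of the groin, was compared by RNA-seq between wild-type (WT) mice on a high-fat diet (HFD) and WT mice on chow. All libraries that carry the wild-type genotype label were used, 4 from HFD animals and 4 from chow animals, which is 8 of the 16 libraries sequenced. The other 8 libraries are from littermates lacking Kmo in the whole body, 4 on HFD and 4 on chow. They share the gene filter, the scaling and the estimate of the spread between animals, and their own diet response is set beside that of WT. All animals were male, 6 to 7 months old, and no allele other than Kmo or agent other than the diet is named. The composition and duration of the diets, the feeding state and the hour at which tissue was taken are not given in the sources used here.

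White adipocytes store triglyceride in a lipid droplet and release it as fatty acids when energy is needed. They also make fatty acids from glucose and other sugars, a route switched on by carbohydrate and insulin through the transcription factors ChREBP (encoded by Mlxipl) and SREBP1 (encoded by Srebf1). Fat also keeps a daily rhythm, in which ARNTL and CLOCK bind E-boxes and activate genes of the Per, Cry and Rev-erb families that in turn repress them.

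Libraries held 15094130 to 16701388 counted read pairs on HFD and 14680422 to 15713868 on chow, and 16549 of 55487 genes were tested. The defining markers of fat cells were high on both diets. Fabp4, the fatty acid binding protein of adipocytes, had 13711 ± 2133 CPM on HFD and 11125 ± 1931 CPM on chow (SD, n = 4, with CPM the counts set to a common library size), and the droplet coat gene Plin1 had 2290.4 ± 259 CPM on HFD and 2289.8 ± 310.1 CPM on chow. Of the 5 markers, Cidec, described with the droplet proteins, rose. Adipoq, the adiponectin gene, Plin1, Fabp4 and Lipe, hormone-sensitive lipase, did not pass the test between diets (log2 fold changes 0.23, 0.00, 0.30 and −0.03). Kmo, the deleted gene of the littermates, had 2.67, 13.7, 4.59 and 5.67 CPM in WT HFD libraries, against 7.62, 14.6, 2.66 and 19 CPM in WT chow libraries, so it was present in each of the 8 libraries. A lymphoid score, the average log2 CPM over genes of B and T lymphocytes, was 0.76, 3.91, 1.32 and −0.40 on HFD and 2.53, 4.23, 0.34 and 5.11 on chow. That of skeletal muscle genes was 4.57, 4.84, 6.08 and 1.97 on HFD and 4.99, 2.61, 7.03 and 1.76 on chow, so amounts of both varied widely within each diet. WT HFD replicates 3 and 4 and WT chow replicate 2 were sequenced on a single lane and the other 5 libraries were merged over lanes. In bulk tissue, fewer cells of a type and less RNA per cell cannot be told apart.

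Of the genes tested, 1957 (11.8%) passed an adjusted p of 0.05 in edgeR's quasi-likelihood test, 1142 higher (6.9%) and 815 lower (4.92%) on HFD. All counts of list members below are to be read beside these shares. With upper-quartile factors 46.7% of calls were higher, against 58.4% in this fit. Among calls, 275 rose and 337 fell at least 2-fold, 23 rose and 28 fell at least 8-fold, and 8 rose and 7 fell at least 16-fold. The calls had a median of 0.61 on the log2 scale when higher and −0.85 when lower. The genes called higher summed to 197325 CPM on HFD and 113216 CPM on chow, and those called lower to 55399.7 CPM on HFD and 117251 CPM on chow. The 4 HFD libraries lay all above or all below the 4 chow libraries in 2885 genes (17.4%), of which 1656 were higher (10%) and 1229 lower (7.43%). Calls were sensitive to single libraries, with 689 genes called when WT HFD replicate 3 was left out and 1064 when it was WT HFD replicate 2. Leaving out WT chow replicate 4 gave 800 calls, and leaving out WT chow replicate 1 gave 923. Each of the 1957 genes kept its sign in every one of these fits. This was largely fixed in advance, as 1734 of them had no overlap between the diets. Among the 5 WT libraries merged over lanes, with the merged knockout libraries in the fit, 225 genes were called. There 3 clock genes, 0 mitochondrially encoded genes, 0 glycolysis genes, 1 thermogenic gene and 8 fatty acid synthesis genes were lower, and 0 chaperones, 1 matricellular gene and 1 collagen chain were higher. Among libraries with a lymphoid score under 4, a fit without WT chow replicates 2 and 4, 1228 genes were called. These held 5 mitochondrially encoded, 2 glycolysis and 5 thermogenic genes lower, and 8 chaperones and 4 collagen chains higher. Where leaving out 1 library ended the call of a gene described here, the libraries that did so are named and the highest resulting edgeR adjusted p stands in brackets after them.

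**Figure D1:**
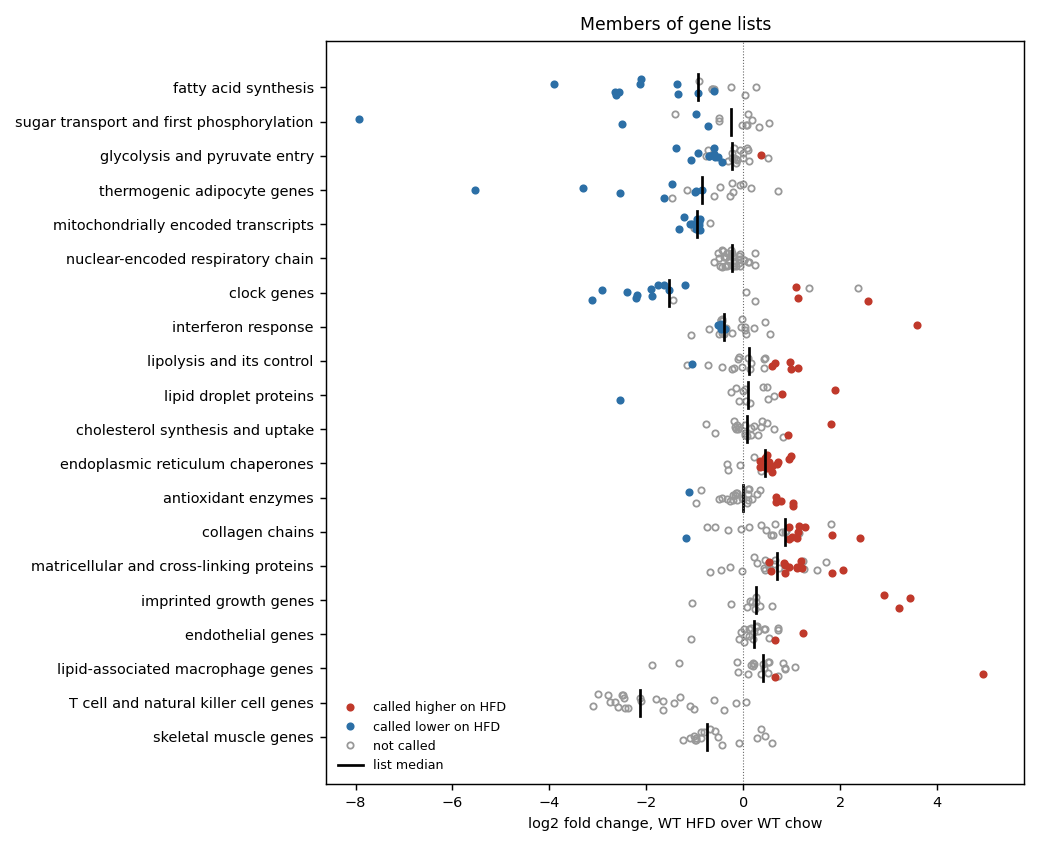
Log2 fold change of HFD over chow in WT (horizontal axis) for the tested members of 20 gene lists (rows). Filled red points were called higher and filled blue points called lower at an edgeR adjusted p under 0.05, open points were not called, and the black bar is the list's median. Most clock and fatty acid synthesis genes lie to the left. Slc2a5 in the sugar transport row and Ucp1 in the thermogenic row lie far to the left. Endoplasmic reticulum chaperones lie mostly to the right in a narrow range.

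Lep, Elovl6 and Slc2a5 mark the response. Lep (ENSMUSG00000059201, chromosome 6 from 29060220 to 29073877, build GRCm38) encodes leptin, the satiety hormone that fat cells release in proportion to their fat store. It had 4991, 4944, 4942 and 4097 CPM in WT HFD libraries, against 1217, 1220.2, 1931 and 622 CPM in WT chow libraries, and the HFD libraries lay within a narrow band above all chow libraries (log2 fold change 1.93, SE 0.37, edgeR adjusted p = 0.00713). Elovl6 (ENSMUSG00000041220, chromosome 3 from 129532355 to 129638495) encodes the elongase that turns palmitate into stearate. It had 25.4, 44, 44.4 and 47.4 CPM in WT HFD libraries, against 522, 473, 552 and 867 CPM in WT chow libraries, so its highest HFD library stood far below its lowest chow library (log2 fold change −3.90, SE 0.49, edgeR adjusted p = 0.00133). Slc2a5 (ENSMUSG00000028976, chromosome 4 from 150119283 to 150144169), the fructose transporter, was nearly at the limit of detection on HFD, with 0.127, 0.0638, 0.133 and 0 CPM in WT HFD libraries, against 16.3, 13.4, 14.8 and 41.9 CPM in WT chow libraries. Its counts summed to 5 on HFD and 1346 on chow, a chow over HFD ratio of 270.0 (95% counting interval 115 to 833, counting error only), and the fit gave its own estimate (log2 fold change −7.93, SE 0.96, edgeR adjusted p = 0.00133). WT chow replicate 4 stood apart from the other chow libraries in Slc2a5, and all 4 lay above every HFD library.

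The route from sugar to fatty acid was lowered at each enzyme from citrate to palmitate. Of 17 fatty acid synthesis genes, 10 fell and 0 rose (median −0.94 on the log2 scale, against −0.03 over all genes tested). Acly, which makes cytosolic acetyl-CoA from citrate, had 207, 367, 396 and 269 CPM in WT HFD libraries, against 1442, 1389, 2553 and 2298 CPM in WT chow libraries. Acaca, acetyl-CoA carboxylase and the committed step, had 173, 236, 294 and 268 CPM in WT HFD libraries, against 1385, 1259, 1573 and 1849 CPM in WT chow libraries. Fasn, fatty acid synthase, had 2068, 3223, 3735 and 2323 CPM in WT HFD libraries, against 10566, 9828, 15032 and 14331 CPM in WT chow libraries. In each of these enzymes every HFD library was under every chow library by a wide margin, with log2 fold changes of −2.63 (SE 0.39), −2.64 (SE 0.34) and −2.13 (SE 0.33) and edgeR adjusted p of 0.00233, 0.00133 and 0.00245. Thrsp, a nuclear protein that marks active lipogenesis, fell with them and averaged 267 and 1577 CPM on HFD and chow (−2.56, edgeR adjusted p = 0.0039). The regulator genes fell too: Mlxipl had 73.8, 61.2, 61.2 and 62 CPM on HFD and 179, 84.7, 196 and 206 CPM on chow (−1.37, edgeR adjusted p = 0.00734), and Srebf1 averaged 398 and 608 CPM (−0.61, edgeR adjusted p = 0.0232). Scd1, the stearoyl-CoA desaturase and the most abundant transcript of the list, averaged 33806 ± 9951 CPM on HFD and 63238 ± 1386 CPM on chow without passing (−0.90, edgeR adjusted p = 0.0548). The whole list took 3.79%, 3.13%, 4.25% and 5.42% of all CPM on HFD and 8.61%, 8.11%, 9.27% and 8.97% on chow. Scd1 made up most of this, as the list summed to a median of 40205 CPM on HFD and 87924 CPM on chow. The share therefore largely follows Scd1, which was not called. The call of Srebf1 ended without WT HFD replicate 1, 2 or 3 or WT chow replicate 4 (0.0719), and the number of called members ran from 7 to 11 when 1 library was left out.

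Sugar entry and handling fell at several points. Of 14 transport and first phosphorylation genes 4 fell and 0 rose, and of 28 genes of glycolysis and pyruvate entry 10 fell and 1 rose. Over all genes tested 4.92% fell and 6.9% rose. Slc2a4, the insulin-regulated glucose transporter GLUT4, had 178, 140.0, 135 and 196 CPM in WT HFD libraries, against 284, 269, 396 and 319.6 CPM in WT chow libraries, without overlap (log2 fold change −0.97, SE 0.15, edgeR adjusted p = 0.00227). Tkt, transketolase of the non-oxidative pentose phosphate pathway, had 460.3, 436, 465 and 533 CPM in WT HFD libraries, against 1516, 1265, 1848 and 2234 CPM in WT chow libraries (log2 fold change −1.86, SE 0.27, edgeR adjusted p = 0.00175). It was the 1 faller of 8 genes of that pathway, in which G6pdx, its NADPH-producing entry enzyme, rose (0.51, edgeR adjusted p = 0.0211). Pdk1 and Pdk2, kinases that switch off pyruvate dehydrogenase, both fell (−1.39, edgeR adjusted p = 0.00979, and −0.59, edgeR adjusted p = 0.0126), while Pdk4, the isoform known for induction by fasting and fatty acids, had 154 and 160.5 CPM on HFD and chow (−0.06, edgeR adjusted p = 0.922). Pdhb, a subunit of pyruvate dehydrogenase itself, fell as well (−0.93, edgeR adjusted p = 0.0155), and Pfkp, the platelet-type phosphofructokinase, was the single riser of its list (0.36, edgeR adjusted p = 0.0269). The number of glycolysis genes called lower changed to 3 with WT HFD replicate 2 or WT chow replicate 4 left out, 4 with WT HFD replicate 1 or 3 left out and 5 with WT chow replicate 1 or 3 left out. The call of G6pdx ended without WT HFD replicate 1 or 3 or WT chow replicate 1 or 4 (0.0669), and that of Pdhb without WT chow replicate 4 (0.0524). The call of Pfkp ended without WT HFD replicate 2 or 3 or WT chow replicate 1, 2 or 4 (0.0821).

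**Figure D2:**
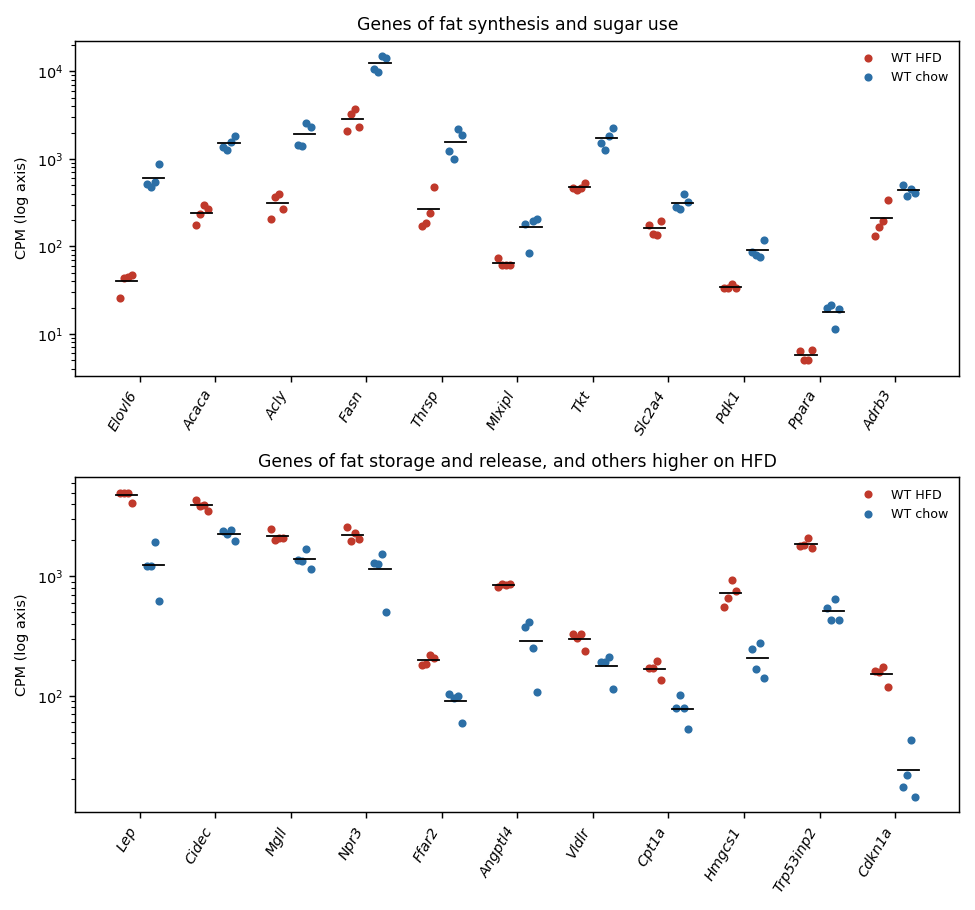
CPM (vertical log axis) of 11 genes lower on HFD (upper panel) and 11 genes higher on HFD (lower panel), with 4 HFD points to the left of 4 chow points for each gene and a line at each mean. In Elovl6, Acaca, Acly, Fasn, Thrsp and Tkt the points of both diets stand far apart, and in Lep and Hmgcs1 they do so in the other direction.

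Of 18 elongation and desaturation genes 2 fell, Elovl6 among them, and 1 rose. Over all genes tested 4.92% fell and 6.9% rose. Fads1, the delta-5 desaturase of polyunsaturated fatty acids, had 43, 29.2, 28.7 and 48.9 CPM in WT HFD libraries, against 92.3, 74.3, 93 and 64.4 CPM in WT chow libraries (−1.11, edgeR adjusted p = 0.00559), and Fads3 rose (0.76, edgeR adjusted p = 0.0198). The call of Fads3 ended without WT HFD replicate 1 or 3 or WT chow replicate 4 (0.0628). Of 23 cholesterol synthesis and uptake genes 2 rose and 0 fell, and the risers became 1 with WT HFD replicate 1, 2 or 3, WT chow replicate 1, 2 or 4, KO HFD replicate 2, 3 or 4 or KO chow replicate 1 left out and 6 with WT chow replicate 3 left out. Hmgcs1, the cytosolic HMG-CoA synthase, had 555, 652, 928 and 754 CPM in WT HFD libraries, against 246, 166, 273 and 141 CPM in WT chow libraries, without overlap (log2 fold change 1.81, SE 0.28, edgeR adjusted p = 0.00297). Of 14 cholesterol efflux and handling genes 1 fell, the sterol hydroxylase gene Cyp27a1 (−0.55, edgeR adjusted p = 0.0266), a call that ended without WT HFD replicate 2 or 3 or WT chow replicate 1 or 4 (0.0925).

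Of 14 lipid droplet proteins 2 rose and 1 fell, against 6.9% and 4.92% of all genes tested. Cidec, which fuses lipid droplets into the single large droplet of white fat, had 4324, 3852, 3961 and 3487 CPM in WT HFD libraries, against 2368, 2241, 2438 and 1965 CPM in WT chow libraries, without overlap (log2 fold change 0.79, SE 0.15, edgeR adjusted p = 0.00713). Its relative Cidea, a droplet protein typical of brown and beige fat, moved the other way, with 19.2, 19.98, 28.7 and 37.4 CPM in WT HFD libraries, against 121, 105, 72.2 and 312 CPM in WT chow libraries (log2 fold change −2.53, SE 0.46, edgeR adjusted p = 0.00642). Hilpda, an inhibitor of the lipase ATGL, had 44.3, 27.3, 49.7 and 24.8 CPM on HFD and 10.3, 8.25, 14.4 and 6.19 CPM on chow (1.90, edgeR adjusted p = 0.0131). Triglyceride synthesis had 1 of each among 17 genes: Gk, glycerol kinase, rose (0.97, edgeR adjusted p = 0.0211) and Mogat1, a monoacylglycerol acyltransferase, fell (−0.85, edgeR adjusted p = 0.0151). These calls ended without WT HFD replicate 3 or WT chow replicate 1 (0.0741) for Gk and without WT HFD replicate 3 or WT chow replicate 1 (0.0561) for Mogat1. Droplet risers became 4 with WT chow replicate 3 left out. Triglyceride synthesis genes called lower became 4 with the lymphoid score as a covariate.

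Of 20 genes of lipolysis and its control 5 were higher and 1 lower, against 6.9% and 4.92% of all genes tested. The list mixes genes that start lipolysis with genes that restrain it, so these counts give no direction for lipolysis. Ffar2, a short-chain fatty acid receptor that signals through Gi and restrains lipolysis, had 181, 183, 218 and 208 CPM in WT HFD libraries, against 104, 96.6, 98.9 and 59.4 CPM in WT chow libraries (log2 fold change 1.14, SE 0.19, edgeR adjusted p = 0.00336). Npr3, the clearance receptor for natriuretic peptides, rose (0.97, edgeR adjusted p = 0.0387), as did the prostaglandin receptor gene Ptger3 (0.98, edgeR adjusted p = 0.0317) and Mgll, monoglyceride lipase (0.65, edgeR adjusted p = 0.0213). Adrb3, the beta-3 adrenoceptor that starts lipolysis in mouse fat, averaged 209 ± 89.1 CPM on HFD and 436 ± 59.5 CPM on chow (−1.06, edgeR adjusted p = 0.0269). Ffar2 was called in every fit without 1 library. The call of Npr3 ended without WT HFD replicate 1, 2, 3 or 4, WT chow replicate 1, 2 or 4 or KO HFD replicate 2 (0.0936), and that of Ptger3 without WT HFD replicate 2 or 3 or WT chow replicate 1, 2 or 4 (0.107). The call of Mgll ended without WT HFD replicate 1 or 3 or WT chow replicate 1 or 4 (0.066), and that of Adrb3 without WT HFD replicate 1, 2 or 3 or WT chow replicate 1 or 4 (0.08). The 5 risers became 1 with WT HFD replicate 3 or WT chow replicate 1 or 4 left out, 2 with WT HFD replicate 1 or 2 or WT chow replicate 2 left out and 3 with WT HFD replicate 4 or KO HFD replicate 2 left out, and the 1 faller 0 with WT HFD replicate 1, 2 or 3 or WT chow replicate 1 or 4 left out, 2 with WT chow replicate 2 left out and 3 with WT HFD replicate 4 left out.

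Of 22 fatty acid uptake and activation genes 3 rose and 3 fell, of 23 mitochondrial fatty acid oxidation genes 1 rose and 2 fell, and of 20 peroxisomal oxidation genes 3 rose and 2 fell. Over all genes tested 6.9% rose and 4.92% fell. Angptl4, a secreted inhibitor of lipoprotein lipase, had 817, 866, 843 and 861 CPM in WT HFD libraries, against 375, 414, 249 and 108 CPM in WT chow libraries (log2 fold change 1.56, SE 0.34, edgeR adjusted p = 0.0119). Vldlr, a receptor for triglyceride-rich lipoproteins, averaged 299 and 177 CPM on HFD and chow (0.75, edgeR adjusted p = 0.0407). Fabp3, the fatty acid binding protein of heart and brown fat, and Slc27a2, a very-long-chain acyl-CoA synthetase, fell (−3.05, edgeR adjusted p = 0.0266, and −4.77, edgeR adjusted p = 0.0268). Among 23 mitochondrial fatty acid oxidation genes, Cpt1a, the gatekeeper of fatty acid entry in its liver isoform, had 171, 170.1, 194 and 134 CPM on HFD and 79.5, 101, 79 and 52.7 CPM on chow (log2 fold change 1.10, SE 0.20, edgeR adjusted p = 0.00475). Ppara, the nuclear receptor that drives oxidation genes in liver, had 6.29, 4.98, 5.05 and 6.55 CPM on HFD and 19.6, 21.3, 11.4 and 19.5 CPM on chow (log2 fold change −1.65, SE 0.22, edgeR adjusted p = 0.00144). In the peroxisomal list, the thiolase Acaa1b averaged 89.9 and 39 CPM (1.21, edgeR adjusted p = 0.00188) and the bifunctional protein gene Hsd17b4 568 and 337 CPM (0.75, edgeR adjusted p = 0.00545). Acox2, the oxidase of branched and bile acid side chains, had 5 counts over the HFD libraries and 67 over the chow libraries. Acaa1b and Acaa1a are near-identical copies whose reads may have been divided. The call of Vldlr ended without WT HFD replicate 1, 2 or 3, WT chow replicate 1, 2 or 4 or KO HFD replicate 2, 3 or 4 (0.116), and that of Fabp3 without WT HFD replicate 1, 3 or 4 or WT chow replicate 4 (0.101). The call of Slc27a2 ended without WT HFD replicate 1, 2, 3 or 4 or WT chow replicate 4 (0.0983). The 3 uptake risers became 1 with WT HFD replicate 1, 2 or 3, WT chow replicate 1, 2 or 4 or KO HFD replicate 2, 3 or 4 left out. The 3 uptake fallers became 0 with WT HFD replicate 1 or 3 or WT chow replicate 4 left out and 1 with WT HFD replicate 2 left out. With limma-voom they became 0, and with the lymphoid score as a covariate 0. Mitochondrial oxidation fallers became 1 with WT HFD replicate 2 or 3 or WT chow replicate 1 or 4 left out, and peroxisomal fallers 1 with WT HFD replicate 2 or 3 or WT chow replicate 1 or 4 left out.

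Of 19 thermogenic genes 8 fell and 0 rose (median −0.84). Ucp1, the proton leak protein of brown and beige fat, had 0.572, 0.766, 2.99 and 1.83 CPM in WT HFD libraries, against 26.7, 27.7, 10.5 and 222 CPM in WT chow libraries (log2 fold change −5.54, SE 1.01, edgeR adjusted p = 0.00676). WT chow replicate 4 held most of the chow signal, and every HFD library was under every chow library. Nrg4, a secreted factor of thermogenic fat, had 68.3, 60.1, 71.5 and 95.3 CPM in WT HFD libraries, against 178, 115, 139 and 149.8 CPM in WT chow libraries (log2 fold change −0.98, SE 0.19, edgeR adjusted p = 0.00718). Pm20d1, a secreted peptidase that makes N-acyl amino acids, averaged 6.89 and 13.7 CPM (−0.99, edgeR adjusted p = 0.0133). Ppargc1b, a coactivator of mitochondrial genes, fell as well (−0.84, edgeR adjusted p = 0.0111). The 8 fallers became 5 with WT HFD replicate 1, 2 or 3 or WT chow replicate 4 left out. Of 11 creatine and calcium cycling genes 0 were called by edgeR, 2 by DESeq2 and 1 by limma-voom, with 3 at an unadjusted p under 0.05 by edgeR, and the calcium pump gene Atp2a2 stood nearest to the threshold (0.38, edgeR adjusted p = 0.0533). Risers of that list numbered 1 with WT chow replicate 4, KO HFD replicate 1 or KO chow replicate 2 or 4 left out and 2 with WT chow replicate 3 left out.

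Most transcripts of the mitochondrial genome fell. All 13 tested mitochondrially encoded genes lay below 0, and 10 were called lower (median −0.95). mt-Cytb, of complex III, had 4870.1, 4425, 3356 and 5914 CPM in WT HFD libraries, against 12562, 8098, 9322 and 13224 CPM in WT chow libraries (log2 fold change −1.22, SE 0.25, edgeR adjusted p = 0.00909). mt-Nd4, of complex I, averaged 2375 and 5972 CPM on HFD and chow (−1.33, edgeR adjusted p = 0.00743), and mt-Nd5 2682 and 5732 CPM (−1.10, edgeR adjusted p = 0.00529). Together these transcripts took 3.01%, 2.85%, 2.37% and 3.46% of CPM on HFD and 6.86%, 4.78%, 4.97% and 7.15% on chow, without overlap. Nuclear copies of mitochondrial genes make their counts uncertain. Of 36 nuclear-encoded respiratory chain genes 0 were called by edgeR (median −0.23), 3 by DESeq2 and 1 by limma-voom, with 8 at an unadjusted p under 0.05 by edgeR and with Atp5b and Atp5a1 of the ATP synthase at 0.10 and 0.12. Of 24 mitochondrial ribosomal proteins 1 fell and of 16 citric acid cycle genes 1 rose, Mrps15 (−0.49, edgeR adjusted p = 0.0209) and Idh2 (0.46, edgeR adjusted p = 0.0351), and of 23 branched-chain amino acid breakdown genes only Bcat1 rose (1.24, edgeR adjusted p = 0.0443). The 10 mitochondrially encoded calls became 4 with WT HFD replicate 3 or WT chow replicate 4 left out, 5 with WT HFD replicate 2 or WT chow replicate 1 left out and 6 with WT HFD replicate 1 left out. Nuclear-encoded chain genes called lower numbered 5 with the lymphoid covariate, and 1 with KO chow replicate 4 left out, 2 with WT chow replicate 2 left out and 3 with WT HFD replicate 4 or KO chow replicate 2 left out. The call of Mrps15 ended without WT HFD replicate 2 or 3 or WT chow replicate 1 (0.0748), and that of Idh2 without WT HFD replicate 1, 3 or 4 or WT chow replicate 1 or 4 (0.103). The call of Bcat1 ended without WT HFD replicate 1, 2 or 3, WT chow replicate 1, 3 or 4 or KO HFD replicate 2, 3 or 4 (0.125).

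Both activators of the clock rose, and most of its repressors and output factors fell. Of 19 genes 11 fell and 3 rose (median −1.53). Arntl, also called Bmal1, had 10.5, 31.5, 30.6 and 44.1 CPM in WT HFD libraries, against 4.17, 5.03, 2.93 and 7.53 CPM in WT chow libraries, without overlap (log2 fold change 2.57, SE 0.52, edgeR adjusted p = 0.00955). Its partner Clock had 105, 131, 134 and 144 CPM on HFD and 65, 70.7, 65.1 and 41.6 CPM on chow (log2 fold change 1.09, SE 0.17, edgeR adjusted p = 0.00283). Cry1, a repressor whose peak follows those of the other repressors, was the other riser (1.12, edgeR adjusted p = 0.0259).

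Among the repressors and output factors, Ciart, a repressor bound to the ARNTL and CLOCK pair, had 1.59, 1.66, 0.599 and 0.756 CPM in WT HFD libraries, against 7.88, 6.64, 10.6 and 15.3 CPM in WT chow libraries (log2 fold change −3.13, SE 0.42, edgeR adjusted p = 0.00144). Per3 had 83.7, 23.6, 27.4 and 31.7 CPM in WT HFD libraries, against 187, 107, 145 and 180.3 CPM in WT chow libraries (log2 fold change −1.90, SE 0.40, edgeR adjusted p = 0.0107). Dbp, the D-box output factor whose level swings most over the day in many tissues, had 53.8, 6.96, 9.64 and 6.61 CPM in WT HFD libraries, against 136, 128, 151 and 170.1 CPM in WT chow libraries (log2 fold change −2.92, SE 0.71, edgeR adjusted p = 0.0214). In Per3 and Dbp, WT HFD replicate 1 stood between the other 3 HFD libraries and the chow libraries, and no HFD library reached the chow range. Hlf and Tef, relatives of Dbp, fell (−2.18, edgeR adjusted p = 0.00151, and −1.75, edgeR adjusted p = 0.00568), as did Bhlhe40 and Bhlhe41, repressors that compete for the same sites (−2.22, edgeR adjusted p = 0.00133, and −1.87, edgeR adjusted p = 0.00233). Per2 and Per1 were also lower (−1.53, edgeR adjusted p = 0.0232, and −1.20, edgeR adjusted p = 0.0211), with Nr1d2, encoding REV-ERB beta (−1.64, edgeR adjusted p = 0.0204). Nr1d1, encoding REV-ERB alpha, had 184, 54.8, 47.9 and 37.5 CPM in WT HFD libraries, against 276, 222, 224 and 167 CPM in WT chow libraries (−1.46, edgeR adjusted p = 0.068). It did not pass, and its WT HFD replicate 1 lay within the chow range. WT HFD replicate 1 was the HFD library nearest to chow in 12 of the 14 called genes (85.7%), against 479 of all 1734 called genes without overlap (27.6%), and WT chow replicate 2 was the chow library nearest to HFD in 9 of 14 (64.3%, against 37.2%).

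The 11 fallers became 7 with WT HFD replicate 3 left out. The call of Cry1 ended without WT HFD replicate 2, 3 or 4 or WT chow replicate 1 or 4 (0.074), and that of Dbp without WT HFD replicate 2 or 3 or WT chow replicate 4 (0.0715). The call of Per2 ended without WT HFD replicate 3 or WT chow replicate 1 or 4 (0.0679), and that of Per1 without WT HFD replicate 3 (0.0696). The call of Nr1d2 ended without WT HFD replicate 2 or 3 or WT chow replicate 1 (0.0661). The hour of tissue collection was not tested against these values.

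**Figure D3:**
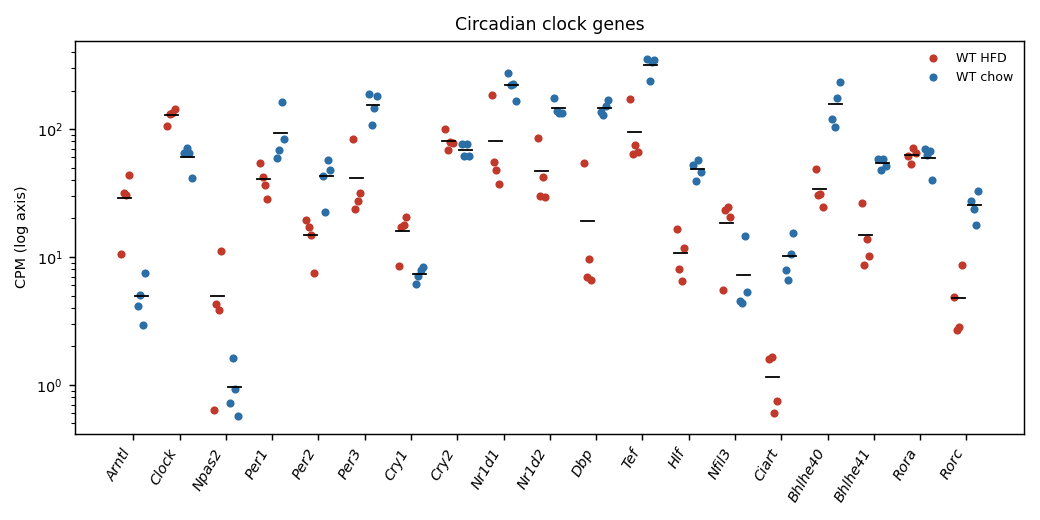
CPM (vertical log axis) of 19 clock genes in each library, with 4 HFD points to the left of 4 chow points and a line at each mean. Arntl, Clock and Cry1 lie higher on HFD, most others lie lower, and 1 HFD point, replicate 1, lies between the groups in Dbp, Per3 and Tef.

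E-boxes, the sites bound by ARNTL and CLOCK, were looked for in the promoters. The 250 bases before the transcription start (RefSeq, build GRCm38.p6) were searched on both strands for the E-box CACGTG. It was found in 4 of the 8 called-lower clock genes whose sequence was in the table (Bhlhe41, Ciart, Per1 and Tef), in 1 of 3 called-higher genes (Cry1) and in 0 of 5 genes not called, against 1854 of 27025 genes (6.86%). The Rev-erb and ROR site, AANT and any base followed by GGTCA, was found in 0 of these genes and in 0.585% of all genes. A match is a description and shows no binding. Ciart is shown because it holds 3 matches and had one of the largest falls, Bhlhe41 and Tef because they fell in every fit without 1 library, and Cry1 because it rose with the same site. The sequences run 5′ to 3′ on the gene's strand and end at the base before the start, with capitals marking the E-boxes.
Ciart (chr3:95882229-95882478, minus strand): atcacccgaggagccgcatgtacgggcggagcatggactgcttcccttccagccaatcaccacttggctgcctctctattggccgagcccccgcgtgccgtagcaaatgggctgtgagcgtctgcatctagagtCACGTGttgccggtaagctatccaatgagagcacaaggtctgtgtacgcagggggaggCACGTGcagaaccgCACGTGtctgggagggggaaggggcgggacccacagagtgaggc
Bhlhe41 (chr6:145865421-145865670, minus strand): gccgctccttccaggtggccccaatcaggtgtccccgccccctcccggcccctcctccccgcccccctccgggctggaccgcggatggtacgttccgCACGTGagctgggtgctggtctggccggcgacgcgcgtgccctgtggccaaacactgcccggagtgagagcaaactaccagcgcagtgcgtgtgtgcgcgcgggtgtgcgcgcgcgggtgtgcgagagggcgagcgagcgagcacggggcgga
Tef (chr15:81802423-81802672, plus strand): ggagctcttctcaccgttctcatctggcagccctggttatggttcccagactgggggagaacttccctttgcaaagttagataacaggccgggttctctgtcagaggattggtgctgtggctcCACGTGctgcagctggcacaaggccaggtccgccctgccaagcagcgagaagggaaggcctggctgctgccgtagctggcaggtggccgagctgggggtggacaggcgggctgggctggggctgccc
Cry1 (chr10:85185055-85185304, minus strand): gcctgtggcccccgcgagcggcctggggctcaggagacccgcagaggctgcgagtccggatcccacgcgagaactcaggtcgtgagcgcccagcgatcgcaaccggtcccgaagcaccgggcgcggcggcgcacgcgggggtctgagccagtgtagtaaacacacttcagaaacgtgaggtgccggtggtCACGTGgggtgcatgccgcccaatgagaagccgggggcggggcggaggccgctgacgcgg
Ciart carries its E-boxes 38 to 110 bases from the start, Cry1 54, Tef 121 and Bhlhe41 147 bases from it. A gene with E-boxes that fell and one that rose thus shared the same letters.

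Chaperones of the endoplasmic reticulum, where secreted proteins fold, were mostly higher. Of 19 genes 14 rose and 0 fell (median 0.46). Hspa5, encoding BiP, the main chaperone and stress sensor partner of the compartment, had 487, 642, 763 and 649 CPM in WT HFD libraries, against 307, 331, 383 and 269 CPM in WT chow libraries, without overlap (log2 fold change 0.98, SE 0.17, edgeR adjusted p = 0.0039). Manf, a secreted stress-induced factor, had 47.6, 68.7, 73.3 and 58.9 CPM on HFD and 37.4, 40.3, 38 and 38.7 CPM on chow (log2 fold change 0.69, SE 0.12, edgeR adjusted p = 0.0039). Edem1, which sends misfolded glycoproteins to degradation, had 274, 301, 326 and 300.0 CPM on HFD and 180.0, 190.0, 202 and 163 CPM on chow (log2 fold change 0.71, SE 0.12, edgeR adjusted p = 0.00424). Hyou1, Hsp90b1, Calr, Sel1l and Dnajc3 rose by 0.45 to 0.60 on the log2 scale, with edgeR adjusted p from 0.00475 for Hyou1 to 0.013 for Calr. The list summed to 0.305% to 0.396% of CPM on HFD and 0.229% to 0.279% on chow. WT HFD replicate 1 was again the HFD library nearest to chow in 12 of 13 called genes without overlap (92.3%, against 27.6% of all such genes). The 14 risers became 9 with WT HFD replicate 3 or WT chow replicate 1 or 4 left out.

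The same promoters were searched for the ER stress response element, a site of ATF6 that reads CCAAT, 9 bases of any kind and CCACG. It was found in 6 of 12 called chaperone genes with a sequence (Calr, Canx, Dnajc3, Hsp90b1, Hspa5 and Pdia6) and in 2 of 5 not called (Creld2 and Syvn1), against 35 of 27025 genes (0.13%). The plain CCAAT box, which the element contains, was found in all 12 and in 37.5% of all genes. These 4 are shown because they rose and hold the element, with its letters in capitals.
Hspa5 (chr2:34771840-34772089, plus strand): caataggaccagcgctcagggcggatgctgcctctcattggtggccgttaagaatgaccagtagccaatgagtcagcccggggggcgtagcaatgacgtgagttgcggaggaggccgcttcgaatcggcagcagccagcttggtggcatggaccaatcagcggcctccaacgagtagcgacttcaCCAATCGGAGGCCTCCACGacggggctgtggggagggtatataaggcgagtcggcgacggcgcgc
Dnajc3 (chr14:118937682-118937931, plus strand): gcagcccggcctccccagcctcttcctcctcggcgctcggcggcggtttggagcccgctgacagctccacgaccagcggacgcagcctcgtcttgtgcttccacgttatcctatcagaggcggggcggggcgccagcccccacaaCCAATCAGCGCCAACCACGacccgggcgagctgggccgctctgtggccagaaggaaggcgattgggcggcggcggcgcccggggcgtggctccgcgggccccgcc
Calr (chr8:84846932-84847181, minus strand): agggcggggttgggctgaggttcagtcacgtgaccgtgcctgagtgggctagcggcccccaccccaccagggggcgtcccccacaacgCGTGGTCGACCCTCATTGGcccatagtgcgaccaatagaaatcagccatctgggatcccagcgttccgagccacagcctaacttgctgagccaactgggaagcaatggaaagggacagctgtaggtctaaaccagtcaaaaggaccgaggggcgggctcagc
Hsp90b1 (chr10:86705445-86705694, minus strand): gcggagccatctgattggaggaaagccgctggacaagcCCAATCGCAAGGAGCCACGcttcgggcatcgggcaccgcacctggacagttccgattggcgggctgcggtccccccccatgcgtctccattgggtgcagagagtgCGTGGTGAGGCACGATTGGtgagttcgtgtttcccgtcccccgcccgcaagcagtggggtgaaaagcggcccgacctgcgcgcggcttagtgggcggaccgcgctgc
Hsp90b1 has 2 copies, 88 and 193 bases from the start, and Hspa5, Dnajc3 and Calr have 1 each, 46, 86 and 143 bases from it. The list was compiled for its function and not for this element, but members of it are textbook cases in which the element was described.

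Cytosolic stress genes moved in part. Of 21 immediate early and heat shock genes 4 rose and 1 fell, against 6.9% and 4.92% of all genes tested. Hspa8, the constitutive HSC70, had 605, 971, 922 and 792 CPM on HFD and 379, 454, 491 and 458 CPM on chow (log2 fold change 0.88, SE 0.17, edgeR adjusted p = 0.00674). Hsp90aa1 and Hsph1 rose (0.59, edgeR adjusted p = 0.0144, and 1.15, edgeR adjusted p = 0.0238). The amino acid response list had 3 risers and 1 faller of 18. Slc3a2, the shared heavy chain of amino acid exchangers, had 180.2, 176, 197 and 154 CPM on HFD and 79, 83.8, 106 and 76.5 CPM on chow (log2 fold change 1.03, SE 0.17, edgeR adjusted p = 0.00333). Psat1 of serine synthesis rose (0.77, edgeR adjusted p = 0.0188), while Aspg, an asparaginase, fell (−3.98, edgeR adjusted p = 0.0167). Of 14 hypoxia genes 3 rose and 2 fell, among them Hif1a (0.62, edgeR adjusted p = 0.0216) and Vegfa (−0.71, edgeR adjusted p = 0.0318). The call of Hsp90aa1 ended without WT HFD replicate 3 (0.0562), and that of Hsph1 without WT HFD replicate 2 or 3 or WT chow replicate 1 or 4 (0.0793). The call of Psat1 ended without WT HFD replicate 3 (0.0512), and that of Aspg without WT HFD replicate 3 (0.0627). The call of Hif1a ended without WT HFD replicate 2 or 3 or WT chow replicate 4 (0.0779), and that of Vegfa without WT HFD replicate 2, 3 or 4 or WT chow replicate 1, 3 or 4 (0.087). The counts of risers changed to 1 with WT HFD replicate 3 left out and 2 with WT HFD replicate 2 or WT chow replicate 1 or 4 left out for heat shock and 1 with WT HFD replicate 3 left out, 5 with KO chow replicate 4 left out and 6 with WT chow replicate 3 left out for the amino acid response. Hypoxia risers became 0 with WT HFD replicate 3 or WT chow replicate 4 left out and 1 with WT HFD replicate 2 left out, and hypoxia fallers 1 with WT HFD replicate 2, 3 or 4 or WT chow replicate 1, 3 or 4 left out.

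Genes of the extracellular matrix were among the risers, with elastin and collagen VI chains. Of 32 matricellular and cross-linking genes 12 rose and 0 fell (median 0.70). Eln, elastin, had 195, 214, 263 and 165 CPM in WT HFD libraries, against 55.6, 73.4, 62.8 and 44.9 CPM in WT chow libraries, without overlap (log2 fold change 1.82, SE 0.22, edgeR adjusted p = 0.00133). Sparc, a collagen-binding matricellular protein and the most abundant called gene of the group, had 9106, 7849, 7225 and 7334 CPM in WT HFD libraries, against 3693, 3889, 4147 and 1859.8 CPM in WT chow libraries (log2 fold change 1.21, SE 0.30, edgeR adjusted p = 0.0188). Postn and the cross-linking enzyme gene Lox rose too (1.19, edgeR adjusted p = 0.0147, and 0.93, edgeR adjusted p = 0.0217). Of 25 collagen chains 9 rose and 1 fell (median 0.86). Col12a1, a fibril-associated chain, had 38.6, 51.9, 57.3 and 28.6 CPM in WT HFD libraries, against 6.06, 11.4, 7.58 and 8.3 CPM in WT chow libraries (log2 fold change 2.40, SE 0.32, edgeR adjusted p = 0.00157). Col6a1 and Col6a2 of microfibrils rose (1.01, edgeR adjusted p = 0.029, and 1.12, edgeR adjusted p = 0.0231), and the basement membrane chain Col4a2 averaged 1778 and 735 CPM (1.27, edgeR adjusted p = 0.0294). Col27a1 fell (−1.17, edgeR adjusted p = 0.0151). The main fibril chains Col1a1 and Col3a1 did not pass (0.57, edgeR adjusted p = 0.196, and 0.65, edgeR adjusted p = 0.131). Of 22 proteases and inhibitors 3 rose, one of them the aggrecanase Adamts4 at 4.26, 14.9, 11.7 and 7.37 CPM on HFD and 1.76, 2.54, 2.39 and 1.47 CPM on chow (log2 fold change 2.22, SE 0.48, edgeR adjusted p = 0.0108). The 3 risers became 1 with WT HFD replicate 2, 3 or 4 or WT chow replicate 1 or 4 left out and 5 with WT chow replicate 3 left out.

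Matricellular genes summed to 1.32% to 1.39% of CPM on HFD and 0.391% to 0.853% on chow, and collagens to 1.36% to 1.9% on HFD and 0.533% to 1.13% on chow, with WT chow replicate 4, the library with the highest lymphoid score (5.11), lowest in both. The part of lymphoid RNA in this was not tested. The calls were tied to few libraries: the 12 matricellular risers became 1 with WT chow replicate 4 left out, 3 with WT HFD replicate 3 left out, 5 with WT chow replicate 1 left out and 6 with WT HFD replicate 2 left out, and the 9 collagen risers 1 with WT HFD replicate 2 or 3 or WT chow replicate 1 or 4 left out and 5 with WT HFD replicate 1 left out. Eln, Col12a1 and Adamts4 were called in every such fit. The call of Sparc ended without WT chow replicate 4 (0.0512), and that of Postn without WT HFD replicate 3 or WT chow replicate 4 (0.053). The call of Lox ended without WT HFD replicate 3 or WT chow replicate 4 (0.0721), and that of Col6a1 without WT HFD replicate 2 or 3 or WT chow replicate 1 or 4 (0.0835). The call of Col6a2 ended without WT HFD replicate 2 or 3 or WT chow replicate 1 or 4 (0.0695), and that of Col4a2 without WT HFD replicate 1, 2 or 3 or WT chow replicate 1 or 4 (0.0849). The call of Col27a1 ended without WT chow replicate 4 (0.0527).

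**Figure D4:**
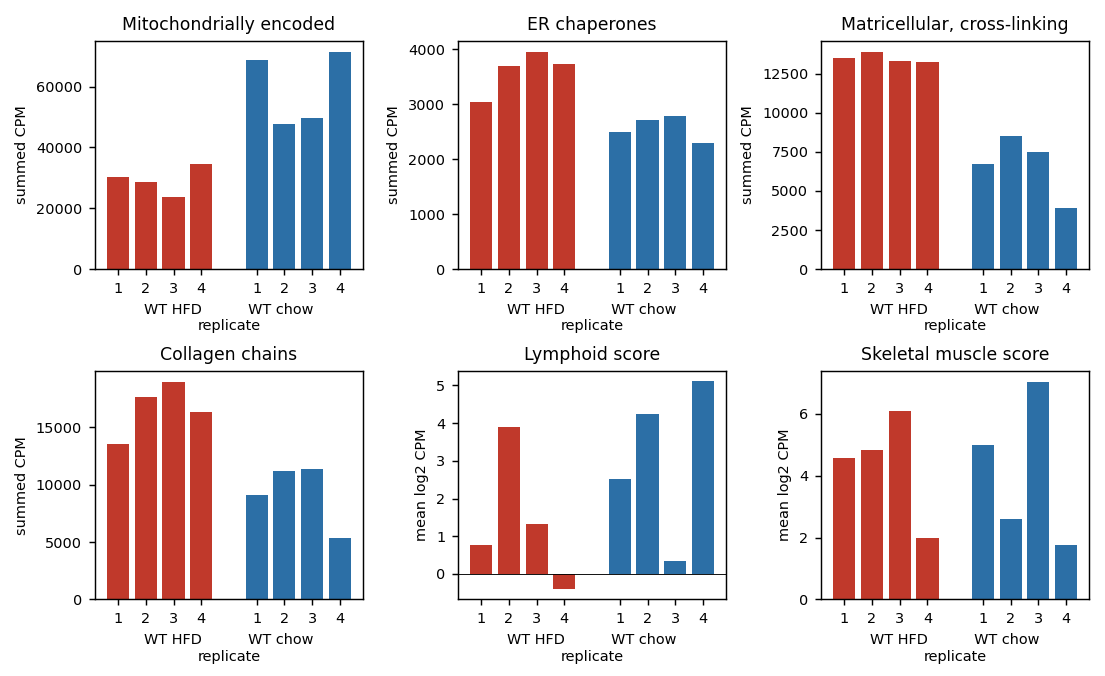
Summed CPM of 4 gene lists and the lymphoid and skeletal muscle scores (mean log2 CPM) in each of the 8 WT libraries, HFD bars left of chow bars. Mitochondrially encoded transcripts are lower and chaperone, matricellular and collagen sums higher in all 4 HFD libraries, and the 2 scores overlap between diets.

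Among secreted adipocyte proteins 4 of 20 rose and 3 fell, against 6.9% and 4.92% of all genes tested. Beside Lep, Bmp3, a growth factor of the BMP family, had 179.7, 132, 133 and 162 CPM on HFD and 68.6, 76.6, 85.6 and 29.9 CPM on chow (log2 fold change 1.22, SE 0.28, edgeR adjusted p = 0.0143). Sfrp5, a secreted WNT antagonist, averaged 332 ± 133 CPM on HFD and 51.1 ± 27.1 CPM on chow (log2 fold change 2.7, edgeR adjusted p = 0.0232). Itih5 rose (0.76, edgeR adjusted p = 0.0211) and Nampt, the enzyme of NAD salvage that is also secreted, fell (−0.65, edgeR adjusted p = 0.0333). Of 20 adipocyte transcription factors 1 rose and 3 fell, among them Klf9 (−0.71, edgeR adjusted p = 0.0111) and Klf15 (−0.76, edgeR adjusted p = 0.0166), both targets of glucocorticoids. Hsd11b1, which regenerates active glucocorticoid inside fat cells, had 69, 71.5, 69.96 and 101.9 CPM in WT HFD libraries, against 280.1, 271, 332 and 323 CPM in WT chow libraries, without overlap (log2 fold change −1.95, SE 0.24, edgeR adjusted p = 0.00133), and 3 of 14 glucocorticoid genes fell while Cdkn1a rose. The call of Sfrp5 ended without WT HFD replicate 1 or WT chow replicate 1 or 4 (0.0617), and that of Itih5 without WT HFD replicate 1 or 3 or WT chow replicate 4 (0.0574). The call of Nampt ended without WT HFD replicate 1, 2 or 3 or WT chow replicate 1, 3 or 4 (0.086), and that of Klf15 without WT HFD replicate 2 (0.0507). The 3 secreted proteins called lower became 1 with WT HFD replicate 2 or 3 or WT chow replicate 1, 3 or 4 left out, and the 4 called higher 2 with WT HFD replicate 1 or WT chow replicate 4 left out. Transcription factors called lower became 1 with WT HFD replicate 2 left out, and glucocorticoid genes called lower 1 with WT HFD replicate 3 left out.

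Imprinted genes, expressed from 1 parental copy, held some of the largest increases. Peg3, a paternally expressed zinc finger gene, had 676, 213, 276 and 330.2 CPM in WT HFD libraries, against 78.3, 42.6, 49.2 and 29.7 CPM in WT chow libraries (log2 fold change 2.90, SE 0.40, edgeR adjusted p = 0.00175). Zim1, a maternally expressed neighbour of Peg3 on chromosome 7, had 40.3, 11.3, 14.3 and 13.5 CPM in WT HFD libraries, against 3.26, 1.06, 1.66 and 1.28 CPM in WT chow libraries (log2 fold change 3.45, SE 0.48, edgeR adjusted p = 0.00175). Mest, a paternally expressed gene tied to fat cell size in mice, averaged 662 ± 236 CPM on HFD and 70.9 ± 32 CPM on chow (3.22, edgeR adjusted p = 0.0226). All HFD libraries lay above all chow libraries in each of these genes, and no other of the 13 genes of the list was called. The call of Mest ended without WT HFD replicate 3 or WT chow replicate 1 or 4 (0.0714).

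Further genes stood out by the size of their change or by their p. Slc5a6, the transporter of biotin and pantothenate, had the smallest p of all genes, with 25, 18.3, 22.7 and 21.5 CPM in WT HFD libraries, against 88.6, 78.4, 66.3 and 84.6 CPM in WT chow libraries (log2 fold change −1.86, SE 0.13, edgeR adjusted p = 4.42e-06). Trp53inp2, a protein of autophagy, had 1782, 1815, 2073 and 1732 CPM in WT HFD libraries, against 545, 429, 648 and 426 CPM in WT chow libraries (log2 fold change 1.85, SE 0.24, edgeR adjusted p = 0.00133). Prps1, which makes the ribose phosphate donor of nucleotides, had 317, 293, 296 and 220.1 CPM in WT HFD libraries, against 101, 76.7, 87.2 and 70.5 CPM in WT chow libraries (log2 fold change 1.75, SE 0.22, edgeR adjusted p = 0.00133). In all 3 the diets did not overlap. Cdkn1a, the cell cycle inhibitor p21, had 159.8, 158, 173 and 119 CPM in WT HFD libraries, against 17.1, 21.9, 42.8 and 14.2 CPM in WT chow libraries (log2 fold change 2.67, SE 0.36, edgeR adjusted p = 0.00165). Cdk1, a mitotic kinase, was the 1 called gene of 19 cell cycle genes (1.20, edgeR adjusted p = 0.00862). Of 12 senescence and p53 genes 3 rose, the others being Ccng1 (0.57, edgeR adjusted p = 0.0182) and Glb1 (0.50, edgeR adjusted p = 0.0357). Gpr50, an orphan relative of melatonin receptors, had 192 counts over the HFD libraries and 0 over the chow libraries, so it was at least 63.8-fold higher (floor of 3 counts over the group). Cacng5, of a calcium channel subunit family, had 91 and 4 counts over the HFD and chow libraries, a ratio of 22.7 (95% counting interval 8.56 to 85.1). Cyp1a1, the classical target of the aryl hydrocarbon receptor, had 5 counts on HFD and 95 on chow, a chow over HFD ratio of 19 (7.88 to 60), and was the only called gene of 11 in its list. The call of Ccng1 ended without WT HFD replicate 3 or WT chow replicate 4 (0.0652), and that of Glb1 without WT HFD replicate 1, 2 or 3 or WT chow replicate 1 or 4 (0.108). Senescence risers became 1 with WT HFD replicate 3 or WT chow replicate 4 left out.

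Calls in the immune and other cell type lists stand against 6.9% of all genes tested called higher and 4.92% called lower. Of 24 T cell and natural killer cell genes 0 were called by edgeR, DESeq2 or limma-voom (median −2.12, 1 gene at an unadjusted p under 0.05 by edgeR), and 1 of 17 B cell genes rose (median −1.16), Ighm, the IgM heavy chain (0.94, edgeR adjusted p = 0.0289). Lck, a T cell kinase, had 1.84, 13.8, 3.46 and 0.63 CPM in WT HFD libraries, against 5.15, 33, 1.2 and 68.4 CPM in WT chow libraries (−2.45, edgeR adjusted p = 0.284). WT HFD replicate 2 and WT chow replicates 2 and 4, the libraries with the highest lymphoid scores on each diet, held most of it. The lymphoid score is the mean over the genes of both lists, so a shift of their medians with it was largely fixed in advance. The median of the T cell list was −0.30 with this score as a covariate and 0.60 among libraries scoring under 4. That of the B cell list was 0.15 and 0.58. The lymphoid score spanned −0.40 to 3.91 on HFD and 0.34 to 5.11 on chow. Of 22 resident macrophage genes 0 were called by any of the 3 tools (median 0.35, 1 at an unadjusted p under 0.05 by edgeR, Mrc1 0.55 and Lyz2 0.09), and of 22 lipid-associated macrophage genes 2 rose (median 0.42). Of these Itgad, an integrin subunit of macrophages, had 55.1, 77.2, 73.7 and 31.2 CPM in WT HFD libraries, against 1.04, 3.1, 2.73 and 0.83 CPM in WT chow libraries (log2 fold change 4.94, SE 1.22, edgeR adjusted p = 0.0232). Resident macrophage genes called higher numbered 3 with WT chow replicate 2 left out, and 6 among libraries with a lymphoid score under 4 (median 0.79). Lipid-associated macrophage risers became 0 with WT HFD replicate 3 or WT chow replicate 1 or 4 left out and 1 with WT HFD replicate 2 left out, 0 with a score under 4 and 4 by DESeq2. The call of Ighm ended without WT HFD replicate 1, 2 or 3 or WT chow replicate 1 (0.0847), and that of Itgad without WT HFD replicate 3 or WT chow replicate 1 or 4 (0.0733).

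Of 24 inflammatory and acute phase genes 3 rose. Saa3, serum amyloid A3, had 28, 25, 19.6 and 8.12 CPM in WT HFD libraries, against 0.977, 1.24, 1.53 and 0.766 CPM in WT chow libraries (log2 fold change 4.15, SE 0.81, edgeR adjusted p = 0.00841). Hp, haptoglobin, had 3652, 3678, 4972 and 3017 CPM in WT HFD libraries, against 1914, 1625, 1740.5 and 996 CPM in WT chow libraries (log2 fold change 1.29, SE 0.27, edgeR adjusted p = 0.00924). Saa1 and Saa2, relatives of Saa3, were too scarce to be tested, with 2 and 5 counts over the 8 WT libraries. Ubd, a ubiquitin-like modifier induced by interferon gamma, had 134, 133, 166 and 36.3 CPM in WT HFD libraries, against 9.32, 11.4, 10.3 and 7.92 CPM in WT chow libraries (log2 fold change 3.59, SE 0.66, edgeR adjusted p = 0.00685). It was the 1 riser among 25 interferon genes, of which 4 fell, among them Stat2 (−0.46, edgeR adjusted p = 0.0249), Gbp7 (−0.52, edgeR adjusted p = 0.0233) and Xaf1 (−0.46, edgeR adjusted p = 0.0314). Of 23 chemokine genes 0 were called by edgeR and 1 each by DESeq2 and limma-voom (3 at an unadjusted p under 0.05 by edgeR). Of 16 complement genes 0 were called by edgeR and 2 by each other tool (4 at such a p), with Cfd, the adipocyte protease adipsin, at 1913 and 4890.4 CPM on HFD and chow (−1.35, edgeR adjusted p = 0.0956). The call of Stat2 ended without WT HFD replicate 1 or 3 or WT chow replicate 1 or 4 (0.0823), and that of Gbp7 without WT HFD replicate 1 or 3 or WT chow replicate 1 (0.0798). The call of Xaf1 ended without WT HFD replicate 2, 3 or 4 or WT chow replicate 1 (0.104). The 4 interferon fallers became 0 with WT HFD replicate 3 or WT chow replicate 1 left out, 1 with WT HFD replicate 1 left out and 2 with WT HFD replicate 4 or WT chow replicate 4 left out. Chemokine risers numbered 1 with KO chow replicate 1 or 3 left out, 2 with WT chow replicate 3 left out and 3 with WT chow replicate 2 left out, and 4 with a lymphoid score under 4. Complement risers numbered 2 with WT chow replicate 2 left out, and complement fallers 1 with WT chow replicate 3 left out and 2 with WT HFD replicate 4 left out.

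Of 21 endothelial genes 2 rose, with the tight junction gene Cldn5 at 126, 122, 152 and 97.2 CPM on HFD and 57.4, 54.2, 70.7 and 30.1 CPM on chow (log2 fold change 1.23, SE 0.27, edgeR adjusted p = 0.0133). Also 1 of 14 mural cell genes rose, Mcam (1.04, edgeR adjusted p = 0.0114). Of 20 progenitor genes 2 rose, one of them Fbn1, fibrillin 1 (2.07, edgeR adjusted p = 0.0297). Of 18 skeletal muscle genes (median −0.75, Acta1 at 205 and 293 CPM on HFD and chow), 13 neutrophil and mast cell genes and 5 erythrocyte genes 0 were called by edgeR, DESeq2 or limma-voom, and 0 had an unadjusted p under 0.05 by edgeR. The lists of MHC class II, epithelial and nerve genes had 1 call each, all lower, of 17, 7 and 13: Itgae (−1.49, edgeR adjusted p = 0.0291), Trp63 (−1.17, edgeR adjusted p = 0.0297) and Cdh19 (−1.56, edgeR adjusted p = 0.0144). The muscle median was 0.36 by limma-voom and −0.05 with the muscle score as a covariate, and ran from −1.68 to 1.26 when 1 library was left out. That score is the mean over the same muscle genes, so the shift with it was largely fixed in advance. Endothelial risers became 1 with WT HFD replicate 1, 2 or 3 or WT chow replicate 1 or 4 left out and 4 with WT HFD replicate 4 left out, and progenitor risers 0 with WT HFD replicate 2, 3 or 4 or WT chow replicate 1 or 4 left out, 1 with WT HFD replicate 1 or WT chow replicate 3 left out and 6 with WT chow replicate 2 left out. With a lymphoid score under 4, 6 progenitor genes were higher. Mural cell risers became 3 with WT chow replicate 3 or KO chow replicate 4 left out. The call of Fbn1 ended without WT HFD replicate 2, 3 or 4 or WT chow replicate 1, 3 or 4 (0.0868), and that of Itgae without WT HFD replicate 1, 3 or 4 or WT chow replicate 1 or 4 (0.102). The call of Trp63 ended without WT HFD replicate 1, 2 or 3 or WT chow replicate 1 (0.101), and that of Cdh19 without WT HFD replicate 3 or WT chow replicate 1 (0.0539).

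Redox and NAD genes moved singly. Of 28 antioxidant enzymes 5 rose and 1 fell, against 6.9% and 4.92% of all genes tested. Prdx5, a peroxiredoxin of mitochondria and peroxisomes, had 424, 332, 400.0 and 388 CPM on HFD and 215, 238, 299 and 212 CPM on chow (log2 fold change 0.68, SE 0.15, edgeR adjusted p = 0.0108). Hmox1, haem oxygenase 1, averaged 69.9 and 34.5 CPM (1.02, edgeR adjusted p = 0.0177), and Gpx8 fell (−1.12, edgeR adjusted p = 0.0294). Of 18 kynurenine and NAD genes 3 fell and 1 rose. Nmnat3, of mitochondrial NAD synthesis, had 8.96, 6.83, 7.58 and 10.2 CPM on HFD and 13.6, 15.8, 15 and 16.1 CPM on chow (log2 fold change −0.85, SE 0.15, edgeR adjusted p = 0.00521). Nnmt, which uses up nicotinamide by methylation, rose (1.02, edgeR adjusted p = 0.0148). Of 20 insulin signalling genes 2 rose, one of them Gsk3b, a kinase that insulin switches off (0.43, edgeR adjusted p = 0.0238), and Insr, Akt1 and Akt2, the receptor and its kinases, were not called. Of 24 cytosolic ribosomal proteins 0 were called by edgeR, DESeq2 or limma-voom, with 0 at an unadjusted p under 0.05 by edgeR, and of 21 proteasome genes 1 was called, Psmb9 of the immunoproteasome, lower (−0.83, edgeR adjusted p = 0.0219). The call of Hmox1 ended without WT HFD replicate 3 or WT chow replicate 1 or 4 (0.0645), and that of Gpx8 without WT HFD replicate 1, 2 or 3 or WT chow replicate 1 or 4 (0.0946). The call of Nnmt ended without WT HFD replicate 3 (0.0532), and that of Gsk3b without WT HFD replicate 3 or WT chow replicate 4 (0.085). The call of Psmb9 ended without WT HFD replicate 1 or 3 or WT chow replicate 1 or 4 (0.0725). The 5 antioxidant risers became 1 with WT HFD replicate 3 or WT chow replicate 1 or 4 left out and 3 with WT HFD replicate 1 or 2 left out, and the 1 faller 0 with WT HFD replicate 1, 2 or 3 or WT chow replicate 1 or 4 left out and 6 with WT HFD replicate 4 left out. Kynurenine and NAD fallers became 1 with WT HFD replicate 2 or 3 or WT chow replicate 1 or 4 left out, and 0 with a lymphoid score under 4. Insulin signalling risers became 0 with WT HFD replicate 3 or WT chow replicate 4 left out and 1 with WT HFD replicate 1 or 2 or WT chow replicate 1 left out.

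The diet response was set beside that of Kmo knockout littermates, 4 on HFD and 4 on chow, which share no library with the WT comparison. In the knockout 2071 genes (12.5%) were called, and 1226 genes were called in both genotypes in the same direction (62.6% of WT calls and 59.2% of knockout calls) with 0 in opposite directions. Of the 1957 WT calls, 1951 had the same sign in the knockout (99.7%, against 82.6% of all genes). The log2 fold change of Elovl6 was −3.90 in WT and −3.91 in the knockout, and that of Lep 1.93 in WT and 1.88 in the knockout. Fasn stood at −2.13 in WT and −1.53 in the knockout, and Cidec at 0.79 in WT and 0.60 in the knockout. Of the clock genes, Arntl stood at 2.57 in WT and 2.80 in the knockout and Dbp at −2.92 in WT and −3.09 in the knockout, and Hspa5 stood at 0.98 in WT and 0.76 in the knockout. The difference between genotypes was tested as an interaction, which called 0 genes (0%) by edgeR, DESeq2 and limma-voom. By edgeR 187 genes had an unadjusted p under 0.05, 43 of them among the WT calls. That is fewer than the share of 0.05 of all tested genes awaited with no interaction. The test may thus have been conservative, and 0 calls do not show equal responses. The 95% interval of the diet effect within WT reached a median of 0.44 to each side on the log2 scale, and the interaction carries the error of both genotypes.

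**Figure D5:**
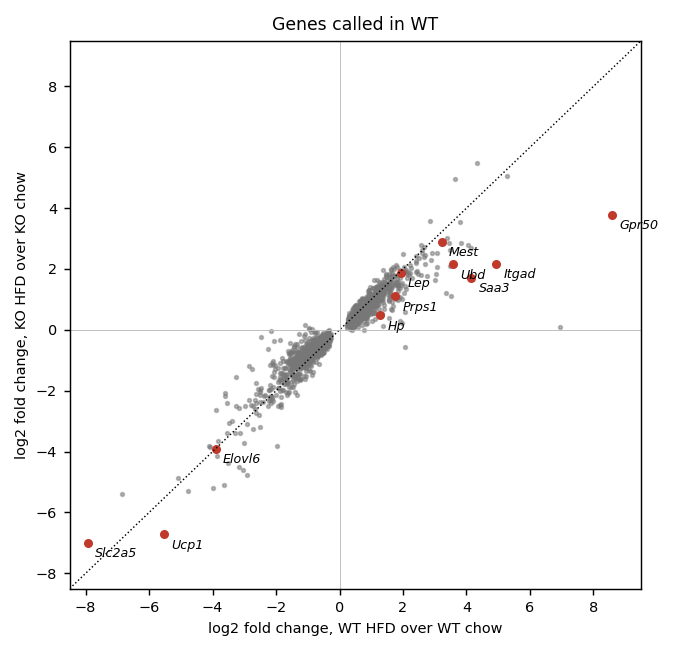
Log2 fold change of HFD over chow in WT (horizontal axis) and in Kmo knockout animals (vertical axis) for the 1957 genes called in WT, with the dotted line of equal values. Nearly all points lie in the quadrants of equal sign, as 1951 genes share it.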

How the data were processed

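Poly-A RNA was sequenced with a stranded kit and paired reads of 150 bases, per the labels' protocols, from RNA with an integrity number above 7. The submitters' processing notes name STAR 2.7.3a and the build GRCm38.p6. The authors deposited whole-number counts of read pairs per gene, made by featureCounts 2.0.3 from an Ensembl annotation with strand ignored, which is stated per the file headers. Overlapping and antisense genes therefore cannot be told apart, and near-identical copies are uncertain. Columns were matched to samples by animal code, so each library is 1 animal by its labels. No pair of libraries of a group agreed within sampling noise (lowest chi-square per gene 9.82).

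Of 55487 genes 55141 had a symbol. With R 4.3.3 and edgeR 4.0.16, filterByExpr left 16549, factors were by TMM, and a quasi-likelihood model (glmQLFit, robust, glmQLFTest) with 4 group means was fitted to all 16 libraries. The Benjamini-Hochberg adjustment ran over these 16549 genes and calls needed an adjusted p under 0.05. CPM uses TMM factors, 1 CPM stands for 15 to 16 counts, and a prior count of 2 was used for log2 CPM. Counting intervals are 95% and cover counting error only.

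The comparison, the 57 gene lists and their members were chosen with earlier results of these data known. Lists are described by counts and medians, without a test. The rule named Lep, Elovl6, Slc2a5 and Kmo, 15 increases and 15 decreases of the largest size (called, groups not overlapping, either diet averaging 1 CPM or more, no predicted genes), the 15 most abundant called genes, the 10 with the smallest p, and up to 6 members of each list. Arntl, Per2, Per3, Nr1d1, Nr1d2, Dbp, Cry1, Scd1, Srebf1, Hsp90b1, Calr, Col1a1, Col3a1, Pdk4 and Col4a2 were chosen after their values were seen. A few genes that the rule or this choice covers are not reported here.

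The model was tested on simulated data with 16549 genes. At each fold 50 genes were changed, and all others had no diet effect in WT. For HFD against chow in WT the model recovered 14% of genes changed 1.5-fold, 48% changed 2-fold and 80% changed 4-fold upward. It recovered 52% of those changed 0.5-fold, with 5 false calls. Far more genes were called in the data, and the adjusted p depends on that number, so these shares may not hold for the data. Alternatives were DESeq2 1.42.0, limma-voom (limma 3.58.1), upper-quartile or relative log expression scaling, no filter, 1 CPM in 4 libraries, an absolute log2 fold change of 1 or more, the 8 WT libraries alone, a replicate block, lymphoid or muscle scores as covariates, a single-lane term, merged libraries only, lymphoid scores under 4, and leaving out each library. Promoter sequences come from RefSeq.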

Additional observations from a re-analysis of the deposited data

Results flagged for a closer look

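In 31 of 466 groups tested, a library stood farther from the other 3 than Dixon's limit for 4 samples allows, 6.65% of the groups of 233 genes. Chance flags about 1 in 20 groups. WT HFD replicate 1 stood apart in 9 genes, namely Zim1 (40.3 CPM, others 11.3 to 14.3), Elovl6 (25.4 CPM, others 44 to 47.4), Mlxipl (73.8 CPM, others 61.2 to 62), Zfp423 (92.7 CPM, others 72.4 to 73.7), Tef (171 CPM, others 63.7 to 75.2), Gbp7 (29 CPM, others 33.8 to 34.1), Per3 (83.7 CPM, others 23.6 to 31.7), Nr1d1 (184 CPM, others 37.5 to 54.8) and Dbp (53.8 CPM, others 6.61 to 9.64). For WT HFD replicate 2 there were 2 genes, Acaa1a (192 CPM, others 234 to 243) and Igkc (311 CPM, others 1.76 to 10.2). WT HFD replicate 3 stood apart in 1 gene, namely Pdk1 (37.4 CPM, others 33 to 33.4). For WT HFD replicate 4 there were 5 genes, Cyp2f2 (15.7 CPM, others 1.2 to 2.94), Lep (4097 CPM, others 4942 to 4991), Hsd11b1 (101.9 CPM, others 69 to 71.5), Gpx8 (31.9 CPM, others 18.1 to 18.7) and Cdh19 (5.04 CPM, others 1.53 to 2.1). WT chow replicate 1 stood apart in 1 gene, namely Nr1d2 (175 CPM, others 133 to 138). For WT chow replicate 2 there was 1 gene, Hsp90aa1 (206 CPM, others 159 to 164). WT chow replicate 3 stood apart in 5 genes, namely Rnase2a (0.333 CPM, others 0), Arl14epl (0.266 CPM, others 0), Acaa1b (48.8 CPM, others 35 to 36.6), Acta1 (911 CPM, others 39.8 to 171) and Krt10 (5.26 CPM, others 3.17 to 3.52). For WT chow replicate 4 there were 7 genes, Slc2a5 (41.9 CPM, others 13.4 to 16.3), Ucp1 (222 CPM, others 10.5 to 27.7), Aspg (60.01 CPM, others 5.72 to 12.7), Acot11 (95.9 CPM, others 6.39 to 20.1), Ffar2 (59.4 CPM, others 96.6 to 104), Gnai1 (167 CPM, others 324 to 335) and Glb1 (28.8 CPM, others 34.4 to 35.5). Of the 9 genes of WT HFD replicate 1, Tef, Per3, Nr1d1 and Dbp belong to the clock and lay above the other HFD libraries, toward the chow values. WT chow replicate 4, which was apart in 7 genes, had the highest lymphoid score (5.11).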

How the results depend on the processing

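No called gene reversed, and all 1957 calls kept their sign wherever a setting gave them a value. These genes were selected in the same data and 1734 of them had no overlap between diets, so a reversal was unlikely beforehand. Medians of 24 of 57 lists changed sign under at least 1 alternative (88 of 1767 values), as did 23 named genes that were not called (90 values). Main counts for WT were 1957 genes called, 1142 higher and 815 lower. DESeq2 called 1226 lower (2778 in all), no filter 1245 (472 lower), a minimum log2 fold change of 1 612 (275 higher, 337 lower), the 8 WT libraries alone 1140 (685 and 455), merged libraries only 225 (126 and 99), and libraries with a lymphoid score under 4 1228 (708 and 520). The last 3 fits hold fewer libraries, and the cause was not tested. With upper-quartile factors 46.7% of calls were higher, against 58.4%, and the median of all genes was −0.09, against −0.03. Both tissue scores as covariates, chosen after seeing the data, called 2262. Without 1 library the counts ran from 689 to 2400 called, 428 to 1512 higher and 261 to 924 lower. The replicate block called 1050 genes (615 higher, 435 lower). Deviations of WT HFD and WT chow libraries with the same replicate number correlated at 0.21, 0.39, 0.31 and −0.25. Libraries with unlike numbers were not compared, so a pairing by replicate number was not tested. In the knockout, 2071 genes were called, 1284 with no filter, 603 with the fold minimum, 1126 with the replicate block, 800 with lymphoid scores under 4, and 745 to 2714 without 1 library. Genes called in both genotypes in the same direction numbered 1226, 751 with no filter, 349 with the fold minimum, 599 with the replicate block, 198 in merged libraries, 491 with lymphoid scores under 4, and 569 to 1481 without 1 library. The interaction called 0 genes under every setting in which it was fitted, which leaves out the 8 WT libraries alone. Of the values of 233 named genes under the alternatives, 989 lost a call and 33 gained one. The rest stayed on their side of the threshold, 6176 counted as the same and 17 as moved. Moved means called in neither fit, with a log2 fold change shifted by at least the SD within the diets. At this depth, genes under a few CPM rest on few counts.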
